A study of Homo sapiens with 4 samples.

Results

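The 37 genes described here encode the enzymes of fatty acid synthesis, elongation, desaturation and activation, the enzymes of mitochondrial fatty acid beta-oxidation, and SREBF1, a transcription factor that drives lipid synthesis genes. They were taken by symbol from the 57820 rows of the deposited count table, and each symbol matched 1 row. Of these genes, 23 belong to the synthesis arm, from SREBF1 to the acyl-CoA synthetases, and 14 to the oxidation arm, from CPT1A on. All 37 passed the filter on low counts. RNA came from U87 cells, an established human glioma line, with a knockdown hairpin for GLUD1 (group shGlud1, 2 libraries) or with a control hairpin (group shNT, 2 libraries). Both groups grew in DMEM with bovine calf serum and spent 6 h in low glucose, so no library in normal glucose enters the comparison. GLUD1 encodes mitochondrial glutamate dehydrogenase, which interconverts glutamate and oxoglutarate. The labels do not give the hairpin sequences or how many hairpins, clones or separate cultures were used. The p-values therefore cover only how far these libraries spread, and that spread may be technical.

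Fatty acid synthesis takes place in the cytosol. ACLY and ACSS2 make acetyl-CoA, the acetyl-CoA carboxylases turn it into malonyl-CoA, and FASN condenses these units into palmitate, which elongases and desaturases at the endoplasmic reticulum lengthen and unsaturate. Beta-oxidation runs the other way in mitochondria: acyl chains enter through the carnitine shuttle, are shortened in repeated cycles, and pass electrons through ETF and ETFDH to ubiquinone. Malonyl-CoA inhibits CPT1, which links the pathways, and glioma cells are known for active lipid synthesis.

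Total expected counts were between 16546849 and 18537314 per library, and 14616 genes were tested. Levels are CPM, a gene's counts relative to all counts of its library, scaled with TMM factors. Fold changes divide shGlud1 by shNT and are given as log2 values with a standard error (SE). A gene was said to have risen or fallen when its adjusted p in edgeR's quasi-likelihood test, corrected over all genes tested, was under 0.05. GLUD1 had 34.0 and 44.5 CPM in the shGlud1 libraries, against 78.1 and 76.5 CPM in the shNT libraries (log2 fold change -0.98, SE 0.13, adjusted p = 1.26e-12, edgeR). Of 9 glial and glioma markers, VIM and CD44 were abundant, while SOX2 and AQP4 were at 0 in every library and GFAP, S100B and OLIG2 stayed under 1 CPM. VIM and NES rose (0.99 and 1.93), and CD44 and CHI3L1 were not called. The adipocyte, hepatocyte and blood cell markers summed to at most 1.05 CPM in any library. The 5 neuron markers summed to 23.1 and 21.3 CPM in the shGlud1 libraries, against 37.6 and 34.4 CPM in the shNT libraries, and of the 4 tested RBFOX3, under 1 CPM in every library, rose and GAD1 fell. RBFOX3 lost its call in DESeq2 and without any 1 of the 4 libraries, at 1.69 to 1.93. All 5 proliferation markers rose, and their summed level was 433 and 463 CPM in the shGlud1 libraries, against 133 and 135 CPM in the shNT libraries. Rows of the mitochondrial genome took 1.95% and 1.52% of counts in the shGlud1 libraries, against 1.00% and 1.12% in the shNT libraries. The part of either difference in the results below was not tested. In bulk RNA, fewer cells of a type and less RNA per cell cannot be told apart.

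A promoter window, the 250 bases before the start of the gene in RefSeq (GRCh38.p14), was at hand for 33 of the 37 genes. GENCODE 29, from which the gene spans below are taken, holds longer transcripts of some of these genes, so a window can lie inside a gene's span and even in an exon. By the RefSeq starts, HADHA and HADHB, which encode the subunits of one enzyme, are transcribed away from each other with 306 bases between them, while their GENCODE spans overlap. The windows of FADS3 and ELOVL6 are shown, as those of the member with the largest fall and of one with the largest rise, chosen after their values were seen. FADS3's whole window lies in an intron of a longer GENCODE transcript of the gene, and of ELOVL6's window the 165 bases outside every GENCODE exon are given. Each sequence runs 5′ to 3′ on the gene's strand, and capitals mark matches to GGGCGG, the core of the GC box, or to CCAAT, on either strand.
FADS3, chr11:61891546-61891795, minus strand: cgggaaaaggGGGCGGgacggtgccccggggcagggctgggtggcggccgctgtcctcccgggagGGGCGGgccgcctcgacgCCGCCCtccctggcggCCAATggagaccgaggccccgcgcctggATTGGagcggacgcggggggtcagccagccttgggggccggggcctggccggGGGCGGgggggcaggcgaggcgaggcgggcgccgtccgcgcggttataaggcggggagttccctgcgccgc
ELOVL6, chr4:110198677-110198841, minus strand: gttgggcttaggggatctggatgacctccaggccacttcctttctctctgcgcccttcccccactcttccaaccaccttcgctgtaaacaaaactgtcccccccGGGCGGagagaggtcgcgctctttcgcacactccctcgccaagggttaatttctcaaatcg
FADS3's window held 4 matches to GGGCGG and 2 to CCAAT, and ELOVL6's held 1 to GGGCGG.

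Across the 33 windows, GGGCGG on either strand was in 30, against 46.2% of all 27305 genes with a window, which include non-coding genes. It was in 12 of the 13 windows of genes that rose, 6 of the 6 of genes that fell and 12 of the 14 of genes not called. CCAAT was in 18 of the 33 windows, against 37.0% of all genes, and in 5 of 13, 3 of 6 and 10 of 14 of the same groups. The E-box CACGTG was in the windows of ELOVL4 and ELOVL5, against 7.73% of all genes. None of the 33 held the classical sterol regulatory element, the direct repeat bound by PPAR with RXR, or the ERR element TNAAGGTCA, searched on both strands and found in 0.0439%, 0.022% and 1.05% of all genes. A missing match says only that these letters were not in this window.

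Of the 37 members, 15 rose, 7 fell and 15 were not called. Among all genes tested, 61.0% were called, 31.9% rose and 29.1% fell. In the synthesis arm 9 of 23 rose (39.1%) and 4 fell (17.4%), with a median log2 fold change of 0.25. In the oxidation arm 6 of 14 rose (42.9%) and 3 fell (21.4%), with a median of 0.12, against 0.06 over all genes tested. The groups did not overlap for 33 of the 37 members, against 81.0% of all genes tested. Rises of at least 2-fold were called for ELOVL6, ELOVL7, ECI2 and ETFDH, against 14.9% of all genes, and a fall of that size for FADS3, against 12.8% of all genes. Both arms held rises and falls.

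The count of members that rose or fell depended on scaling. The TMM factors were 1.15 and 1.24 in the shGlud1 libraries and 0.826 and 0.845 in the shNT libraries. With total counts alone, the median of all genes shifted by 0.52 to 0.57, 51.9% of all genes rose and 13.7% fell, and 79.1% of calls were upward, against 52.3% with TMM factors. On that scale 17 synthesis genes rose and 1 fell, and 10 oxidation genes rose and 0 fell. Without shNT replicate 1 the falls were 1 in synthesis and 1 in oxidation, and without shNT replicate 2 they were 2 and 1, with 6 synthesis and 5 oxidation genes risen. In the 4 fits that leave out a library, 1 group has a single library that is assumed to vary like the other group, so these fits also have less power. Across the 12 alternatives to the reported test, 11 of the 22 called members kept their call and direction in all of them. ACACA, SCD5, ELOVL6, ELOVL7, ACSL1, ACSL4, CPT2, HADHA, ECI2 and ETFDH rose in each, and FADS3 fell in each. The share of all called genes that kept their call in every alternative was not computed, so this count has no background.

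**Figure D1:**
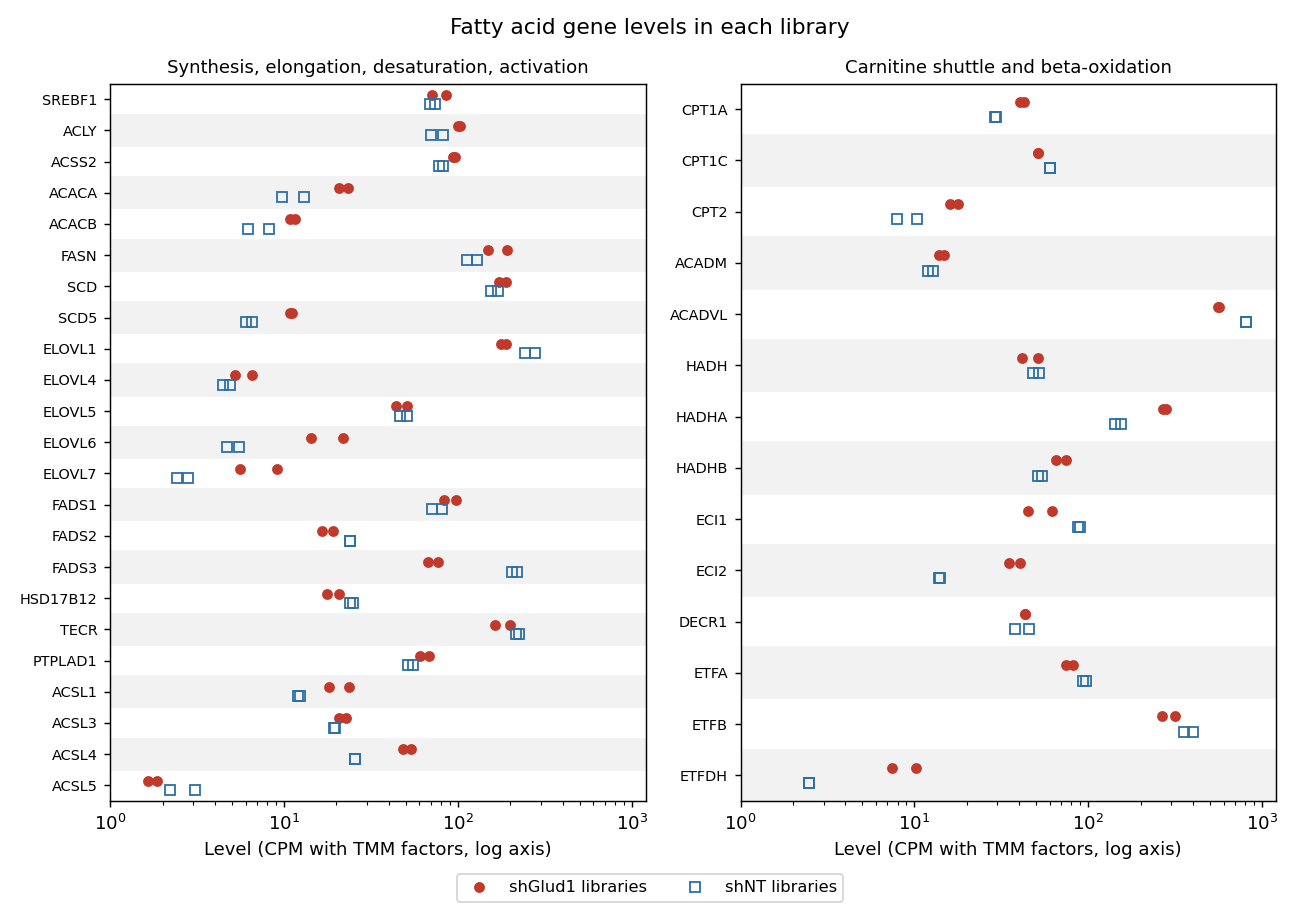
Level of each gene in each library, in CPM with TMM factors on a log axis; filled circles are the 2 shGlud1 libraries and open squares the 2 shNT libraries. ELOVL6, ELOVL7, ECI2 and ETFDH lie clearly to the right in the shGlud1 libraries and FADS3 to the left, while SREBF1, ELOVL5, HADH and DECR1 overlap.

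SREBF1, which encodes the precursor of the transcription factor SREBP that activates fatty acid synthesis genes after cleavage, had 85.3 and 70.4 CPM in the shGlud1 libraries, against 68.6 and 73.9 CPM in the shNT libraries. Its groups overlapped, and it was not called (log2 fold change 0.13, SE 0.13, adjusted p = 0.399, edgeR). With total counts it was 0.64 (adjusted p = 4.49e-06).

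Of the 4 genes that supply acetyl-CoA and malonyl-CoA, 3 rose and none fell, against 31.9% and 29.1% of all genes tested. In each of the 4 both shGlud1 libraries were above both shNT libraries, as in 6253 of the 14616 genes tested. ACACA, acetyl-CoA carboxylase alpha, the rate-limiting enzyme of synthesis, had 20.7 and 23.4 CPM in the shGlud1 libraries, against 13.0 and 9.74 CPM in the shNT libraries. That is a log2 fold change of 0.96 (SE 0.17, adjusted p = 1.61e-07, edgeR), or 1.94-fold. ACACB, the carboxylase isoform at the mitochondrial outer membrane, averaged 11.2 ± 0.596 CPM in the shGlud1 libraries and 7.21 ± 1.41 CPM in the shNT libraries (SD, n = 2 each) and rose by 0.64 on the log2 scale (SE 0.21, adjusted p = 0.00491, edgeR). ACLY, ATP-citrate lyase, had 100.05 and 103 CPM in the shGlud1 libraries, against 82.3 and 69.9 CPM in the shNT libraries (0.42, SE 0.13, adjusted p = 0.00289, edgeR). ACSS2, which makes acetyl-CoA from acetate, was at 0.25 (SE 0.13, adjusted p = 0.0836, edgeR) and was not called. FASN, fatty acid synthase, had 192 and 148 CPM in the shGlud1 libraries, against 129 and 113 CPM in the shNT libraries (0.49, SE 0.13, adjusted p = 0.000517, edgeR). Without shNT replicate 2, ACLY was at 0.30, ACACB at 0.44 and FASN at 0.40, no longer called (adjusted p = 0.202, 0.179 and 0.104, edgeR). With the trend on transcript length removed, ACLY was at 0.19, ACACB at 0.05 and FASN at -0.07, none of them called. ACACA was then at 0.36 (adjusted p = 0.0476, edgeR). ACACB was also not called with DESeq2 (0.58, adjusted p = 0.0554, DESeq2).

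The stearoyl-CoA desaturases, which make monounsaturated fatty acids, differed in level and in fold change. SCD, the common form, had 171 and 188 CPM in the shGlud1 libraries, against 170 and 154 CPM in the shNT libraries, and was not called (0.15, SE 0.13, adjusted p = 0.326, edgeR). The lowest shGlud1 library was barely above the highest shNT library. SCD5, a form expressed in brain, had 10.8 and 11.2 CPM in the shGlud1 libraries, against 6.01 and 6.54 CPM in the shNT libraries. It rose 1.75-fold (log2 0.81, SE 0.21, adjusted p = 0.000425, edgeR), and its log2 fold change was also 0.81 with the length trend removed. Per kilobase of longest transcript, SCD averaged 33.5 CPM in the shGlud1 libraries and 30.2 CPM in the shNT libraries, while SCD5 averaged 3.55 CPM in the shGlud1 libraries and 2.02 CPM in the shNT libraries.

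The 8 genes of the elongation machinery divided, with 2 risen, 2 fallen and 4 not called. Among all genes tested, 31.9% rose and 29.1% fell. ELOVL6, which extends palmitate to stearate, had 14.2 and 21.7 CPM in the shGlud1 libraries, against 4.69 and 5.49 CPM in the shNT libraries. It rose 3.52-fold (log2 1.82, SE 0.20, adjusted p = 1.01e-17, edgeR), and its lower shGlud1 library was still well above both shNT libraries. ELOVL7, which acts on longer saturated chains, had 5.55 and 9.07 CPM in the shGlud1 libraries, against 2.42 and 2.81 CPM in the shNT libraries (log2 1.48, SE 0.27, adjusted p = 1.05e-07, edgeR). The shGlud1 libraries of both genes differed more from each other than the shNT libraries did. ELOVL1, the main elongase of very long saturated chains, fell to 182 ± 8.48 CPM in the shGlud1 libraries, against 261 ± 23.9 CPM in the shNT libraries (log2 -0.51, SE 0.14, adjusted p = 0.000399, edgeR). With total counts its log2 fold change was 0.00 and with the length trend removed -0.08, and without shNT replicate 1 it was -0.42 (adjusted p = 0.0862, edgeR). HSD17B12, the ketoacyl-CoA reductase of the cycle, was at -0.35 (SE 0.16, adjusted p = 0.0444, edgeR). It was at 0.18 with total counts. With DESeq2 it was at -0.40 and not called (adjusted p = 0.0603, DESeq2). Without a filter on low counts it was at -0.30, also not called (adjusted p = 0.139, edgeR). Without shNT replicate 1, shNT replicate 2 or shGlud1 replicate 1 it was at -0.38, -0.32 and -0.26, not called (adjusted p = 0.138, 0.226 and 0.173, edgeR). Of its exonic bases 21.6% are shared with other genes on either strand, so part of its counts is uncertain. TECR, the enoyl-CoA reductase that closes the cycle, was at -0.28 (adjusted p = 0.058, edgeR), PTPLAD1 (now HACD3), a hydroxyacyl-CoA dehydratase, at 0.27, ELOVL4 at 0.33 and ELOVL5 at -0.04. The last of these overlapped between the groups. TECR was called as fallen with RLE factors (-0.34), 1 CPM in 2 libraries (-0.29), DESeq2 (-0.34) and limma-voom (-0.29). It was not called with a replicate block (-0.29), without a filter on low counts (-0.23), with the length trend removed (-0.23) or with total counts (0.23).

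Among the 3 front-end desaturase genes, 2 fell and none rose, against 29.1% and 31.9% of all genes tested. FADS3 (chromosome 11, 61873519 to 61892051, GRCh38), the family member known to act on sphingoid bases, had 76.5 and 66.8 CPM in the shGlud1 libraries, against 204 and 219 CPM in the shNT libraries. Its log2 fold change of -1.56 (SE 0.13, adjusted p = 2.7e-29, edgeR) was the lowest of the 37, and it was -1.04 with total counts and -1.90 with the length trend removed. FADS2, which starts the synthesis of long polyunsaturated fatty acids, had 19.0 and 16.5 CPM in the shGlud1 libraries, against 23.9 and 23.8 CPM in the shNT libraries (-0.42, SE 0.16, adjusted p = 0.0145, edgeR). With total counts FADS2 was at 0.09. Without a filter on low counts it was at -0.37 and not called (adjusted p = 0.0521, edgeR). Without shGlud1 replicate 2, shNT replicate 1 or shNT replicate 2 it was at -0.32, -0.42 and -0.43, not called (adjusted p = 0.105, 0.0997 and 0.0960, edgeR). FADS1, the next desaturase of that route, had 82.8 and 97.0 CPM in the shGlud1 libraries, against 81.4 and 71.3 CPM in the shNT libraries, and was not called (0.24, SE 0.13, adjusted p = 0.1, edgeR). FADS1 and FADS2 share 5.57% and 4.89% of their exonic bases with other genes, each other included, and strand was not kept by the library kit, so those reads cannot be assigned for certain.

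Of the 4 acyl-CoA synthetases, which activate free fatty acids for either pathway, 2 rose and none fell, against 31.9% and 29.1% of all genes. ACSL4, which prefers arachidonate, averaged 50.7 ± 3.82 CPM in the shGlud1 libraries and 25.5 ± 0.0429 CPM in the shNT libraries, and ACSL1 averaged 20.9 ± 3.998 CPM in the shGlud1 libraries and 12.2 ± 0.239 CPM in the shNT libraries (SD, n = 2 each). Their log2 fold changes were 0.99 (SE 0.14, adjusted p = 1.08e-11, edgeR) and 0.78 (SE 0.17, adjusted p = 2.27e-05, edgeR). ACSL3, the form on lipid droplets and the endoplasmic reticulum, was at 0.15 and ACSL5, a mitochondrial and endoplasmic reticulum form, at -0.58 (SE 0.36, adjusted p = 0.151, edgeR).

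Of the 3 carnitine shuttle genes among the members, 2 rose and none fell, against 31.9% and 29.1% of all genes tested. CPT1A, the malonyl-CoA-sensitive entry enzyme of mitochondrial oxidation, had 40.7 and 42.4 CPM in the shGlud1 libraries, against 29.01 and 29.6 CPM in the shNT libraries (log2 0.50, SE 0.14, adjusted p = 0.00074, edgeR). CPT2, which reforms acyl-CoA inside the mitochondrion, had 15.9 and 17.8 CPM in the shGlud1 libraries, against 10.4 and 7.91 CPM in the shNT libraries (0.89, SE 0.19, adjusted p = 8.19e-06, edgeR). The groups did not overlap for either gene. CPT1C, a brain form with little transferase activity, was at -0.23 (adjusted p = 0.111, edgeR), with 51.4 CPM in both shGlud1 libraries and 60.4 CPM in both shNT libraries. CPT1A was at 0.17 and not called with the length trend removed, and CPT2 was at 0.64. CPT2 shares 12.0% of its exonic bases with genes on the opposite strand.

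Within the oxidation cycle, 2 of 5 genes rose and 1 fell, against 31.9% and 29.1% of all genes tested. HADHA (chromosome 2, 26190635 to 26244726, GRCh38), the alpha subunit of the trifunctional protein that carries the hydratase and dehydrogenase steps for long chains, had 271 and 282 CPM in the shGlud1 libraries, against 155 and 143 CPM in the shNT libraries. It rose 1.85-fold (log2 0.89, SE 0.14, adjusted p = 4.29e-10, edgeR), with the same log2 value after the length trend was removed. HADHB, the beta subunit with the thiolase, had 64.9 and 74.7 CPM in the shGlud1 libraries, against 54.5 and 51.3 CPM in the shNT libraries (0.40, SE 0.13, adjusted p = 0.00468, edgeR). Its call was lost without shNT replicate 2 (0.35, adjusted p = 0.12, edgeR). ACADVL, the very long-chain acyl-CoA dehydrogenase, was the most abundant of the 37 genes per kilobase of longest annotated transcript in both groups. It was at 238 CPM per kb in the shGlud1 libraries and 344 CPM per kb in the shNT libraries. A gene's longest annotated transcript need not be the one expressed, so this rank is uncertain. ACADVL fell by 0.53 on the log2 scale (SE 0.15, adjusted p = 0.00108, edgeR) and was at -0.01 with total counts. Without shNT replicate 1 or 2 it kept its log2 fold change of -0.53 but was not called (adjusted p = 0.0636 and 0.0564, edgeR). ACADM, the medium-chain dehydrogenase, was at 0.21, and HADH, the dehydrogenase for shorter chains, at -0.10 with overlapping groups. HADH was at 0.42 with total counts (adjusted p = 0.0059, edgeR). With the length trend removed it was at -0.59 (adjusted p = 1.9e-05, edgeR). Both were called, in opposite directions. The removal used HADH's longest annotated transcript, 6541 nt, which need not be the one expressed, so this fall is uncertain.

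The isomerases that prepare unsaturated chains for the cycle moved in opposite directions. ECI2 (chromosome 6, 4115689 to 4135597, GRCh38), found in mitochondria and peroxisomes, had 35.0 and 40.5 CPM in the shGlud1 libraries, against 14.1 and 13.9 CPM in the shNT libraries (log2 1.44, SE 0.15, adjusted p = 2.69e-19, edgeR). ECI1, the mitochondrial isomerase, averaged 53.4 ± 11.5 CPM in the shGlud1 libraries and 88.5 ± 1.21 CPM in the shNT libraries (-0.73, SE 0.13, adjusted p = 9.44e-08, edgeR), and it was not called with total counts (-0.22) or with the length trend removed (-0.27, adjusted p = 0.0508, edgeR). DECR1, the dienoyl-CoA reductase, was at 0.04 with overlapping groups and was not called. It was called as risen with total counts (0.56, adjusted p = 0.000426, edgeR) and with the length trend removed (0.43, adjusted p = 0.00245, edgeR). Of ECI2's exonic bases 29.8% are shared with genes on the opposite strand, C6orf201 among them, so part of its counts may belong to them.

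The electron transfer genes also divided. ETFDH (chromosome 4, 158672125 to 158709623, GRCh38), which passes electrons from ETF to ubiquinone, had 7.40 and 10.2 CPM in the shGlud1 libraries, against 2.49 and 2.48 CPM in the shNT libraries. It rose 3.54-fold (log2 1.82, SE 0.26, adjusted p = 1.89e-11, edgeR), level with ELOVL6 as the largest rise of the 37, and the length trend's removal left it at 1.78. ETFB, the beta subunit of ETF, fell to 291 ± 36.8 CPM in the shGlud1 libraries, against 378 ± 30.0 CPM in the shNT libraries (-0.38, SE 0.14, adjusted p = 0.0136, edgeR). ETFB was at 0.14 with total counts. Without shGlud1 replicate 2, shNT replicate 1 or shNT replicate 2 it was at -0.25, -0.30 and -0.46, not called (adjusted p = 0.058, 0.276 and 0.0752, edgeR). ETFA, the alpha subunit, was at -0.28 and not called (adjusted p = 0.0504, edgeR). It was called as fallen with RLE factors (-0.33), 1 CPM in 2 libraries (-0.29), DESeq2 (-0.33) and a replicate block (-0.28). ETFA was not called with limma-voom (-0.28), without a filter on low counts (-0.23), with the length trend removed (-0.04) or with total counts (0.24). ETFDH shares 13.8% of its exonic bases with PPID and C4orf46 on the opposite strand.

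**Figure D2:**
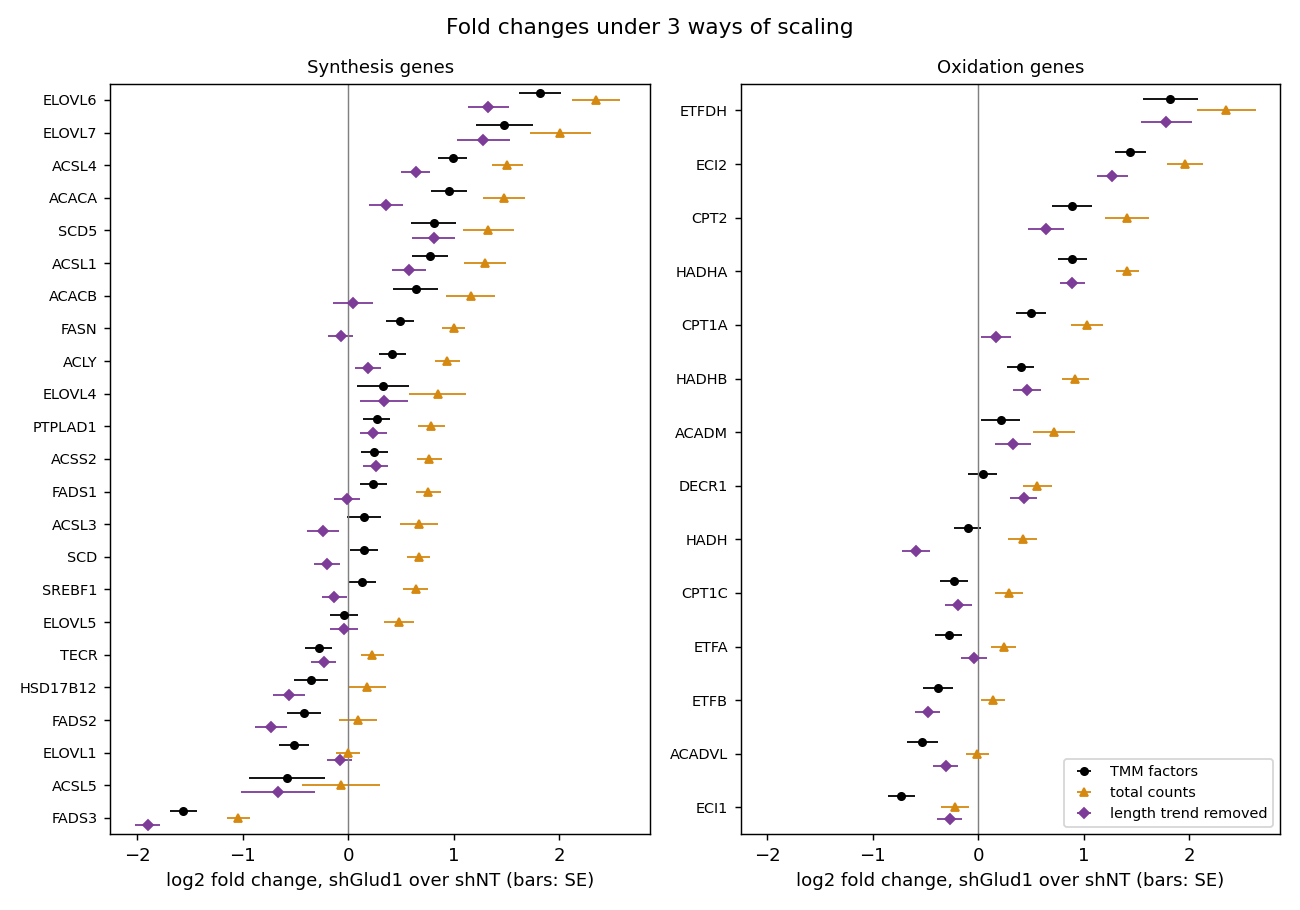
Log2 fold change of each gene, shGlud1 over shNT, with SE bars, under TMM factors (circles), total counts (triangles) and TMM factors with the length trend removed (diamonds). Total counts move all genes to the right, and ETFDH, ECI2, ELOVL6 and ELOVL7 stay above 1 and FADS3 below -1 under all 3.

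Ratios of related genes within a library do not depend on the scaling between libraries, though they keep any trend on transcript length. The pairs were chosen with the members' values known, so they describe sizes and no count of them is a result. ECI2 over ECI1 was 0.569 and 0.895 in the shGlud1 libraries, against 0.160 and 0.155 in the shNT libraries. ETFDH over ETFB was 0.0234 and 0.0386 in the shGlud1 libraries, against 0.00616 and 0.00702 in the shNT libraries, whereas ETFA over ETFB was 0.236 and 0.309 in the shGlud1 libraries, against 0.233 and 0.271 in the shNT libraries. The ratio within ETF overlapped between the groups, and that of ETFDH to ETFB did not. HADHA over HADHB was 4.17 and 3.77 in the shGlud1 libraries, against 2.84 and 2.79 in the shNT libraries, higher in both shGlud1 libraries. ELOVL6 over ELOVL1 was 0.0756 and 0.123 in the shGlud1 libraries, against 0.0169 and 0.0225 in the shNT libraries. FADS3 over FADS1 was 0.923 and 0.689 in the shGlud1 libraries, against 2.50 and 3.07 in the shNT libraries, so FADS3 had fewer counts than FADS1 in both shGlud1 libraries and more in both shNT libraries. SCD5 over SCD was 0.0634 and 0.0592 in the shGlud1 libraries, against 0.0354 and 0.0424 in the shNT libraries. ACSL4 over ACSL3 was 2.33 and 2.36 in the shGlud1 libraries, against 1.31 and 1.30 in the shNT libraries. CPT1A over CPT1C was 0.792 and 0.825 in the shGlud1 libraries, against 0.480 and 0.490 in the shNT libraries. With the length trend removed, the log2 difference between ELOVL6 and ELOVL1 was 1.41 in place of 2.33 and that between ECI2 and ECI1 1.54 in place of 2.17, while that between ETFDH and ETFB was 2.26 in place of 2.20. The differences between the genes of a pair were not tested. With 2 libraries a group, an exact permutation test of a ratio could not go below a two-sided p of 0.333.

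**Figure D3:**
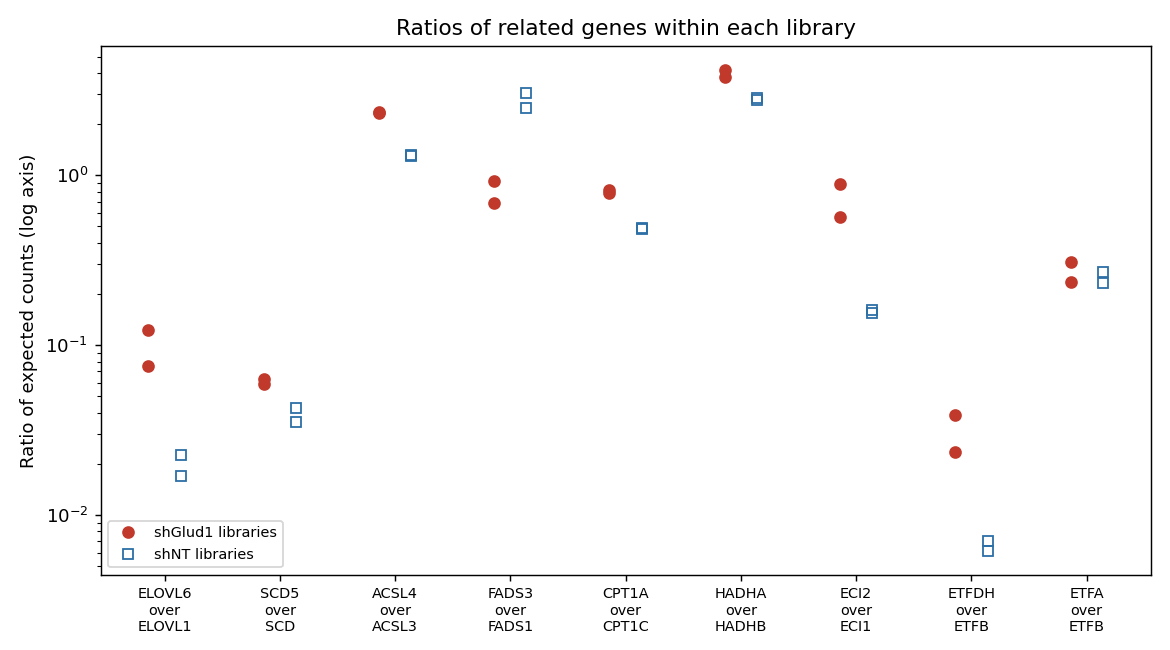
Ratio of expected counts of paired genes within each library, on a log axis; filled circles are shGlud1 libraries and open squares shNT libraries. ECI2 over ECI1, ELOVL6 over ELOVL1 and ETFDH over ETFB show the widest gaps, and ETFA over ETFB overlaps between the groups.

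The arms as a whole were compared by summed counts. The synthesis genes took 0.171% and 0.180% of all counts in the shGlud1 libraries, against 0.129% and 0.125% in the shNT libraries, and the oxidation genes took 0.184% and 0.196% in the shGlud1 libraries, against 0.150% and 0.149% in the shNT libraries. With TMM factors, however, the oxidation genes summed to 1601 and 1578 CPM in the shGlud1 libraries, against 1820 and 1765 CPM in the shNT libraries, and the synthesis sums of 1489 and 1448 CPM in the shGlud1 libraries overlapped those of 1566 and 1486 CPM in the shNT libraries. Synthesis over oxidation was 0.929 and 0.918 in the shGlud1 libraries, against 0.861 and 0.842 in the shNT libraries. Without ACADVL, the oxidation gene with the most counts, it was 1.43 and 1.42 in the shGlud1 libraries, against 1.55 and 1.55 in the shNT libraries, so leaving out that gene turned the direction.

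Fold change was higher for longer transcripts among these genes, as among all genes. Length here is that of the longest annotated transcript, which need not be the one expressed. Across genes, which are not independent replicates and share the same libraries, Spearman's rho between longest transcript and log2 fold change was 0.36 over the 37 members, 0.33 over the 23 synthesis genes and 0.52 over the 14 oxidation genes, against 0.45 over 14406 genes with a length. The median longest transcript was 4339 nt for members that rose, 3551 nt for members that fell and 3081 nt for members not called. Within the synthesis arm it was 5333 nt for those that rose and 4682 nt for those that fell, against 3304 nt for those not called. With the trend removed, the synthesis arm had 6 risen and 3 fallen genes (median -0.01) and the oxidation arm 6 risen and 3 fallen (median 0.25), against 28.8% risen and 27.3% fallen among all genes. Members with transcripts near the median of all genes (3368 nt) then went both ways. ETFDH, HADHA and SCD5 were at 1.78, 0.89 and 0.81. PTPLAD1, ACSS2 and ELOVL4 were at 0.24, 0.26 and 0.34, none of them called. ACSL5, ETFB and ELOVL5 were at -0.66, -0.48 and -0.04, of which only ETFB was called.

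**Figure D4:**
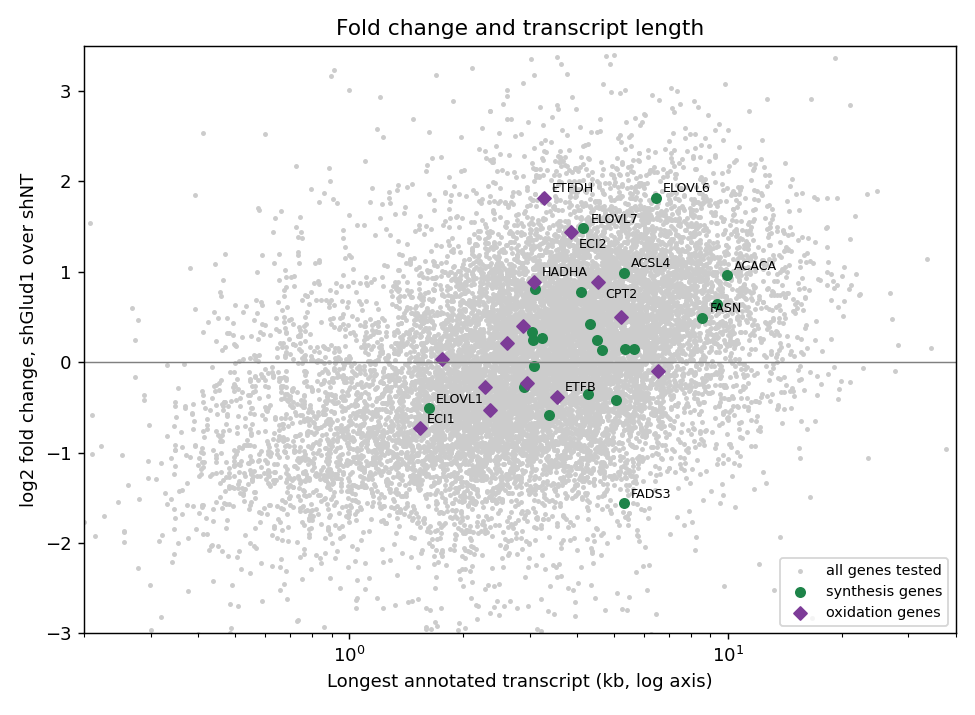
Log2 fold change, shGlud1 over shNT, against the longest annotated transcript in kb on a log axis, for all genes tested (grey), synthesis genes (circles) and oxidation genes (diamonds). The cloud slopes upward, ACACA and FASN lie at its long end, and ECI1 and ELOVL1 at its short end. FADS3 lies lowest of the synthesis and oxidation genes. Outside the axes fall 136 genes.

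Related genes outside the 37 were followed in fixed lists, with 31.9% risen and 29.1% fallen among all genes as their background, or 51.9% and 13.7% with total counts. Of 18 regulators of fatty acid genes tested, 9 rose and 4 fell, with a median of 0.55. The corepressor gene NCOR1 rose by 1.28 on the log2 scale, and the nuclear receptors PPARA and PPARD, known to activate oxidation genes, rose by 1.21 and 1.03. NR1H3, the liver X receptor alpha that activates SREBF1, was at -0.90, ESRRA, a receptor that drives mitochondrial genes, at -0.72, and SCAP, the escort of SREBP, at -0.47, all called. With total counts 14 of the 18 rose and 1 fell, ESRRA was not called and SCAP was at 0.04. With the length trend removed NCOR1 was at 0.67 and PPARA at 0.61, both still called, and without shGlud1 replicate 2 SCAP was at -0.27 and not called (adjusted p = 0.0543, edgeR). Of 9 genes of carbon and NADPH supply, 2 rose and 1 fell: mitochondrial malic enzyme ME2 was at 0.89, IDH1 at 0.34 and PGD, of the pentose phosphate pathway, at -0.59. With total counts 7 of the 9 rose and 0 fell. With the length trend removed ME2 was at 0.30 and PGD at -0.23, neither called. IDH1 lost its call with RLE factors (0.29), with DESeq2 (0.29), without shGlud1 replicate 2 (0.23) and without shNT replicate 1 (0.20).

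Mitochondrial fatty acid synthesis, the separate route that supplies lipoic acid, had 6 of 10 genes fallen and 1 risen with TMM factors, with a median of -0.70, but 2 fallen and 2 risen with total counts. HSD17B8 was at -1.43 and CBR4 at 0.80, although their products form one ketoacyl reductase. MECR, the enoyl reductase, was at -0.89 and ACSF3, which makes malonyl-CoA in mitochondria, at -0.80. HSD17B8 was at -0.77 with the length trend removed, still called, and ACSF3 at -0.28 with total counts, not called. HSD17B8 had 8.40 and 5.55 CPM in the shGlud1 libraries, against 19.0 and 18.3 CPM in the shNT libraries.

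Of 19 other mitochondrial oxidation enzymes, 5 rose and 5 fell (median -0.11), against 10 and 1 with total counts. MUT, the methylmalonyl-CoA mutase, was at 1.17 and ACAA2, the mitochondrial thiolase, at 0.85. The subunits of propionyl-CoA carboxylase moved apart, with PCCA at 1.22 and PCCB at -0.81. HSD17B10 was at -0.74 and the short-chain hydratase ECHS1 at -0.64, but -0.07 and -0.20 with the length trend removed and -0.22 and -0.12 with total counts, not called under either. Of 17 peroxisomal genes, 5 rose and 4 fell (median 0.23), against 12 and 0 with total counts. The bifunctional enzyme HSD17B4 was at 0.85 and the oxidase ACOX3 at 0.89, against DECR2 at -0.76, ABCD4 at -0.61 and SCP2 at -0.47 (0.06 with total counts). With total counts DECR2 (-0.25) and ABCD4 (-0.09) were not called, nor was ABCD4 without shNT replicate 1 (-0.45, adjusted p = 0.0976, edgeR).

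Of 8 further enzymes, paralogs of members together with acyl-CoA thioesterases and ACSF2, 3 rose and 2 fell (median 0.07), against 4 and 1 with total counts, among them the dehydratases PTPLB at 1.30 and PTPLA at -0.90, the thioesterases ACOT9 at 0.45 and ACOT13 at -0.53, and ACSF2 at 0.32. ACOT13 was at -0.02 with total counts, ACOT9 was not called without shNT replicate 2 (0.36), and ACSF2 was not called with RLE factors (0.27), with DESeq2 (0.27), or without shGlud1 replicate 1 (0.28), shNT replicate 1 (0.29) or shNT replicate 2 (0.35). Of 25 genes of fatty acid uptake, binding, droplets and glycerolipids, 5 rose and 9 fell, with a median of -0.12, against 15 risen and 5 fallen with total counts. FABP3, a fatty acid binding protein, had 0.0999 and 0.564 CPM in the shGlud1 libraries, against 3.88 and 5.03 CPM in the shNT libraries, and was at -3.67. FABP5 was at -1.14 and the acyl-CoA synthetase SLC27A5 at -1.58. LPIN2, a phosphatidate phosphatase, was at 1.21, LIPE, the hormone-sensitive lipase, at 0.87 and PLIN3, a droplet coat protein, at 0.56. With the length trend removed FABP3 was at -2.85 and FABP5 at -0.47, both still called, and without shNT replicate 2 PLIN3 was at 0.48 and not called (adjusted p = 0.083, edgeR).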

How the data were processed

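The authors deposited 1 table of expected counts, estimated reads per gene that need not be whole, for 4 poly-A libraries (TruSeq V2, paired-end, per the labels' protocols). Bowtie 0.12.2 and the mouse build mm8 are named per the submitters' processing notes, yet all 57820 rows carry human gene IDs, so the build behind the counts is uncertain. The counting program is not given in the sources used here. PCR copies were not told apart from separate molecules.

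Expected counts were rounded. In edgeR 4.0.16 (R 4.3.3), filterByExpr (minimum count 10) kept 14616 genes, and TMM factors and the robust quasi-likelihood test were applied, with Benjamini-Hochberg adjustment over all genes tested. Each SE is the size of the log2 value over the root of its F statistic. Alternatives used RLE factors, scaling by total counts, all genes without a count filter, 1 CPM in 2 libraries, DESeq2 1.42.0, limma-voom (limma 3.58.1), a replicate block, removal of a lowess trend (span 0.3) on the longest GENCODE 29 transcript (98.6% of tested genes had a length), and each library left out. The test was checked on simulated counts in which 200 genes were changed. There edgeR recovered 35.8% of 1.5-fold, 68.7% of 2-fold and 89.4% of 4-fold changes, so a gene not called may still have changed. Far more genes were called in the data, and the trend on length was not simulated, so the simulation does not check how these affect the calls. Positions are those of GENCODE 29 on GRCh38. Python 3.11.15 with pandas 2.3.3 and matplotlib 3.10.9 made the summaries and figures.

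Values per library are given for called members with a change of at least 2-fold and for SREBF1, ACLY, ACACA, FASN, SCD, SCD5, FADS1, FADS2, CPT1A, CPT2, HADHA and HADHB, and of each further list up to 3 risen and 3 fallen genes by lowest p are named, except 1 gene that is not reported here. Members and lists were chosen with earlier results of these data known. Promoter sequence is shown only outside GENCODE exons, which leaves out the windows of HADHA and FADS1, and FADS2's window, inside FADS1's transcribed span, is not shown.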

Additional observations from a re-analysis of the deposited data

How the results depend on the processing

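With total counts, 17 synthesis genes rose and 1 fell, 10 oxidation genes rose and 0 fell, and the medians were 0.77 and 0.64. Without a filter on low counts 2 synthesis genes fell, and the oxidation median was 0.17. With RLE factors and with DESeq2 the oxidation median was 0.07, and with the length trend removed the medians were -0.01 for synthesis and 0.25 for oxidation. Leaving out 1 library at a time gave 6 to 11 risen and 1 to 4 fallen synthesis genes, 5 to 6 risen and 1 to 3 fallen oxidation genes, medians of 0.18 to 0.29 and 0.08 to 0.17, 7047 to 8765 changed genes in all, and GLUD1 at -1.18 to -0.81. The cause was not tested.

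Several single genes changed sign. With total counts this held for ELOVL1 (0.00), ELOVL5 (0.48), FADS2 (0.09), HSD17B12 (0.18), TECR (0.23), CPT1C (0.29), HADH (0.42), ETFA (0.24), ETFB (0.14), SCAP (0.04) and SCP2 (0.06). With the length trend removed it held for SREBF1 (-0.13), FASN (-0.07), SCD (-0.20), FADS1 (-0.01) and ACSL3 (-0.24). DECR1 was at -0.01 with RLE factors and -0.01 with DESeq2. ELOVL5 was at 0.01 without the filter. With 1 library left out at a time, SREBF1 ran between -0.03 and 0.26, ELOVL5 between -0.14 and 0.04, HADH between -0.26 and 0.03 and DECR1 between -0.09 and 0.19.

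The labels number the libraries 1 and 2 in each group, but same-numbered libraries had deviations correlated at 0.0324, so the numbers were not taken as pairs. With a replicate block 9046 genes changed in place of 8919, the synthesis arm kept counts of 9 and 4, the oxidation arm had 6 risen and 4 fallen, the medians were 0.25 and 0.13, and GLUD1 was at -0.99. Low counts limit the precision of ACSL5, with 33 and 43 in the shGlud1 libraries and 30 and 47 in the shNT libraries.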
